A study of Mus musculus with 3 samples.

Results

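The Zfp-numbered genes are mouse genes whose symbol is Zfp followed only by digits, most of which encode proteins with zinc fingers of the C2H2 kind. Zfp36, an mRNA decay factor with fingers of another kind, was left out. Members were chosen by signal: a gene was taken if at least 1 of its probes was well above background on the empty-vector array, a mark that the scanner software sets for each spot. Of 329 such genes on the array, 298 were members, among 12743 named genes that met the same condition. That condition used the empty-vector array, so the level there is a description of how the members were chosen and was not tested.

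Primary mouse embryonic fibroblasts (MEFs) of the C57BL/6J strain were measured on 3 Agilent 1-colour arrays, with 1 array for each of 3 groups. Every group lacked both Rb and ATM (Rb-/-;ATM-/-), including the control. The cells came from an embryo of day 10. One group carried a vector with an shRNA against DNMT1, the enzyme that copies DNA methylation to the new strand after replication, 1 group carried a vector labelled as expressing ATM, the damage-response kinase (the ATM-labelled array), and the control carried an empty vector. All cells were selected in puromycin at 4 ug/ml for 3 days and cultured for another 4 days. The labels give 1 sample of each group and no second culture or clone, so no difference below has a replicate, a standard error or a p-value. The number of arrays sets the limit of precision. Both comparisons share the empty-vector array.

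C2H2 zinc fingers are short folds held together by a zinc ion. A row of them lets a protein read a stretch of DNA. Many proteins of this kind in mammals also carry a KRAB box, which recruits the corepressor TRIM28 and with it the histone methyltransferase SETDB1, and they silence retroelements and guard imprinted loci. Their genes arose largely by tandem duplication and lie in runs along chromosomes. Near-identical copies within such runs can share probe signal, so values of single genes in a run are uncertain to that extent.

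The promoter sequences are given before the levels, because a letter pattern was shared by part of the members. Windows of 250 bases upstream of a gene's start were taken from RefSeq on GRCm38.p6 and matched to 249 of the 298 members and to 10171 of all genes above background on the empty-vector array. The pattern of ACTACA, any 2 bases and TCCC, read on both strands, is known as a core of the element bound by the factor that Zfp143 encodes. It lay in the windows of 46 of 249 members (18.5%), against 442 of 10171 genes (4.35%) and 547 of all 32851 windows (1.67%). It was 1 of 15 patterns searched, 3 of which were close variants of it, and it was picked once the shares were seen, so its share is a description and no test was made. The most matches in a row were on chromosome 13. There, 16 members lay from Zfp712 to Zfp273, and all 15 with a window held it. Sites from 5 of them are shown, with capitals marking the match, which on the strand shown reads GGGA, any 2 bases and TGTAGT.
Zfp708, chr13:67081562-67081621, minus strand: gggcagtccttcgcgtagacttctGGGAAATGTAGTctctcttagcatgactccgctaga
Zfp455, chr13:67194426-67194485, plus strand: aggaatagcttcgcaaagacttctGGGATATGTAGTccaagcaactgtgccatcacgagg
Zfp58, chr13:67500523-67500577, minus strand: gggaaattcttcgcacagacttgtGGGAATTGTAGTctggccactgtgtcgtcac
Zfp738, chr13:67683533-67683592, minus strand: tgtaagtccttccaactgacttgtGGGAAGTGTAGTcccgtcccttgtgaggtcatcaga
Zfp273, chr13:67813725-67813784, plus strand: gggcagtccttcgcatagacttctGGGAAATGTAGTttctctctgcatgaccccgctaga
Neighbouring genes of such a run are often copies of each other, so these sites are not independent.

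Of the 26 members that were at least 2-fold different from the empty vector in either comparison, 21 had a window and 4 of these (19.0%) held the pattern. That share was close to the 18.5% of all members. The 4 windows follow, with the matches in capitals. Zfp454 has 2 windows in RefSeq, of which the one with the match is shown.
Zfp605, chr5:110109842-110110091, plus strand: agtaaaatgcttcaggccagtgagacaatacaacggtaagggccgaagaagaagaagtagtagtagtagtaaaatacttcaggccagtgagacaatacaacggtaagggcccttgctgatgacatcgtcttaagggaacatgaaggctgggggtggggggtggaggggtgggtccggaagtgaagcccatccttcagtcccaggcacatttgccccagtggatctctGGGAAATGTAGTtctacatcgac
Zfp454, chr11:50887511-50887760, minus strand: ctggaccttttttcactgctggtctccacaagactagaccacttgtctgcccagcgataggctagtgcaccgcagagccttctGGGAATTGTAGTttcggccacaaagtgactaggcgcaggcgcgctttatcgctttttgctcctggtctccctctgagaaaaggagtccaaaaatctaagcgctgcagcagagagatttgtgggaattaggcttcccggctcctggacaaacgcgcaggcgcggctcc
Zfp112, chr7:24112070-24112319, plus strand: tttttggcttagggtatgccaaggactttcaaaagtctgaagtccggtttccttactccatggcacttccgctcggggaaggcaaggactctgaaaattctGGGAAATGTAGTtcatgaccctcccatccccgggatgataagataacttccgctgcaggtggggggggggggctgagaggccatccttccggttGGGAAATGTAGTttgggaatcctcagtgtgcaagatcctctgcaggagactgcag
Zfp940, chr7:29853649-29853898, minus strand: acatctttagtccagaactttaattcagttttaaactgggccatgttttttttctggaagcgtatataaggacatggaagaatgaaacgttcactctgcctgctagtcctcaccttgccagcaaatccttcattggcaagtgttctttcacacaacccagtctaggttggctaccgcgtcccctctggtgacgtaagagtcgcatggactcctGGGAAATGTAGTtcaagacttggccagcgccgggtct
Zfp112 held 2 matches. The median log2 ratio to the empty vector was 0.11 for members with the pattern and 0.10 for members without it on the Dnmt1 shRNA array. On the ATM-labelled array it was 0.27 with the pattern and 0.16 without it. A match of letters is not a bound site, and its part in these levels was not tested.

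Other patterns were set beside it. GGGCGG, the box bound by Sp and Klf factors, lay upstream of 45.0% of the 249 members, against 62.2% of the 10171 genes. CCAAT lay upstream of 49.4% of members, against 40.7% of genes, and TATAAA of 8.84% of members, against 8.65% of genes. Member windows held a median of 11 CpG dinucleotides (quartiles 7 and 17), against 15 (quartiles 9 and 22) over all genes. CpG dinucleotides are the sites that DNMT1 keeps methylated.

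The windows of Zfp618 and Zfp536, the members with the lowest and the highest ratio on the ATM-labelled array, are shown for their CpG, which capitals mark.
Zfp618, chr4:62965317-62965566, plus strand: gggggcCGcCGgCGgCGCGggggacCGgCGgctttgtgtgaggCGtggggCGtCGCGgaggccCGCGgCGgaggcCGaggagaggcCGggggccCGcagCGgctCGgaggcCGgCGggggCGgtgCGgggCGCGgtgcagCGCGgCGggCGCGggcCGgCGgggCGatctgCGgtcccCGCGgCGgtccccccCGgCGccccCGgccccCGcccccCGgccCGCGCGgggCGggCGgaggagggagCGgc
Zfp536, chr7:37769753-37770002, minus strand: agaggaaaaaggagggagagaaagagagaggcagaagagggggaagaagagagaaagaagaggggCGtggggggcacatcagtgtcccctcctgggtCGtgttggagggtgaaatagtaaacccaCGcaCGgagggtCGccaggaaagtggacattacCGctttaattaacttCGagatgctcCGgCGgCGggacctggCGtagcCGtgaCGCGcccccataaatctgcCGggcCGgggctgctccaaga
The Zfp618 window held 48 CpG, the highest count of any member, and that of Zfp536 held 16. With members divided by CpG count, the median log2 ratio on the Dnmt1 shRNA array was 0.14 for 88 members of 0 to 8 CpG, 0.08 for the 81 members between and 0.11 for 80 members of 15 to 48 CpG. The same bins of all genes had medians of 0.01, -0.03 and -0.05. On the ATM-labelled array the members' medians were 0.26, 0.17 and 0.11, against 0.07, 0.01 and -0.01 over all genes. On the ATM-labelled array the medians were lower with more CpG, for the members and for all genes alike. On the Dnmt1 shRNA array those of all genes were also lower with more CpG, while those of the members had no such order. Methylation was not measured on these arrays, and the part of CpG in these levels was not tested.

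The targeted genes were checked on their own probes. Dnmt1 had a processed signal of 956 on the Dnmt1 shRNA array, 3169 on the ATM-labelled array and 4908 on the empty-vector array, a log2 ratio of -2.19 for the shRNA and -0.49 for the ATM-labelled array. The Atm probe with signal read 366 on the Dnmt1 shRNA array, 409 on the ATM-labelled array and 430 on the empty-vector array, and the second Atm probe had no array with signal well above background. The place of these probes relative to the deletion and to the vector insert was not known, so they check neither, and that sample goes by its label throughout. Rb1, for which the same holds, read 782 on the Dnmt1 shRNA array, 460 on the ATM-labelled array and 541 on the empty-vector array. The other arrays shared a slide and a scan that the ATM-labelled array did not, so slide and group cannot be told apart. Fibroblast markers were well above background for 12 of 12 genes on the Dnmt1 shRNA array, 11 on the ATM-labelled array and 11 on the empty-vector array. Thy1 was not well above background on the empty-vector array, nor Fap on the ATM-labelled array. These counts do not show differences in level. Of the 11 markers well above background in the control, 2 moved upward and 1 downward past 2-fold with the shRNA. In the ATM-labelled sample 1 moved upward and 3 downward. Lum read 61476 on the Dnmt1 shRNA array, 2733 on the ATM-labelled array and 27744 on the empty-vector array. S100a4 had 72378, 238076 and 77839 in the same order. Of 4 epithelial markers, 3 were well above background on the Dnmt1 shRNA array, 1 on the ATM-labelled array and 1 on the empty-vector array. Krt8 and Krt18, epithelial keratins, had signals of 742 and 1341 on the Dnmt1 shRNA array, and neither was well above background on the other arrays. Cdh1 was well above background on all 3 arrays, and Epcam on none. Of 3 endothelial markers, Kdr and Pecam1 were well above background on every array and Cdh5 on none. Kdr read 3738 on the Dnmt1 shRNA array, 6248 on the ATM-labelled array and 4542 on the empty-vector array. Ptprc, the 1 blood marker on the array, was well above background only on the empty-vector array, at 40.6. The part of such cells in the results below was not tested, and in bulk RNA fewer cells of a type cannot be told apart from less RNA per cell.

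Levels are given as log2 processed signal minus the 75th percentile of the array, averaged over a gene's probes, and a log2 ratio is the level minus that on the empty-vector array. Members well above background numbered 297 on the Dnmt1 shRNA array, 293 on the ATM-labelled array and, by the rule, 298 on the empty-vector array. The mark was thus missing for 1 of 298 members with the shRNA and for 5 in the ATM-labelled sample. Over all genes it was missing for 164 of 12743 with the shRNA and for 577 in the ATM-labelled sample. The members with the lowest mean signal over their probes on the empty-vector array had 41.7 for Zfp536, 42.2 for Zfp697 and 43.5 for Zfp583. The rule looked at single probes, and the probes that admitted Zfp536 and Zfp583 read 57.3 and 63.2 there. The brightest genes outside the rule had 31.6 for Zfp839, 29.3 for Zfp709 and 29.2 for Zfp558. Zfp408, whose human counterpart is mutated in a retinal vessel disease, read 122626 on the Dnmt1 shRNA array, 155932 on the ATM-labelled array and 139390 on the empty-vector array. That is 1 probe, and whether other transcripts add to its signal was not checked. Zfp628, the next brightest member, had probes of 1611 and 211998 on the empty-vector array, so 1 bright probe may not give a gene's level. Of the members, 191 had 1 probe. In those with several, probes of one gene differed in log2 ratio with a pooled SD of 0.30 for the Dnmt1 shRNA array and 0.40 for the ATM-labelled array.

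On the Dnmt1 shRNA array, most Zfp-numbered genes lay within a small distance of the control. Of 298 members, 2 (0.671%) were at least 2-fold higher, against 3.68% of all genes, and 4 (1.34%) were at least 2-fold lower, against 1.97%. In all, 2.01% of members were at least 2-fold different in either direction, against 5.65% of all genes. Of the members, 88.3% had log2 ratios between -0.5 and 0.5, against 84.1% of all genes. The median log2 ratio of the members was 0.10, against -0.03 over all genes, and 218 of 298 (73.2%) lay above the median of all genes. The sign of the members' own median depends on the scaling, while its distance from all genes kept its sign. When the median of each array was subtracted in place of the 75th percentile, the median of all genes moved by -0.24 and that of the members became -0.14, still 0.13 above all genes. At 1.5-fold, 20 members (6.71%) were higher, against 8.32% of all genes, and 5 (1.68%) were lower, against 4.31%.

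**Figure D1:**
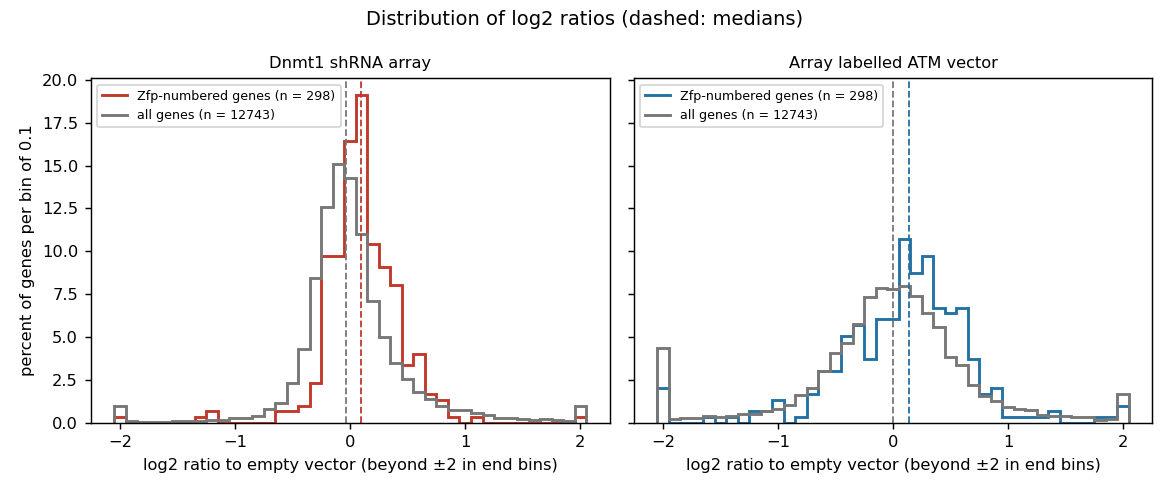
Histograms of log2 ratios to the empty-vector array for the Zfp-numbered genes and for all genes above background there, in bins of 0.1 as a percent of each set, with medians dashed. On the Dnmt1 shRNA array the members' median was 0.10, against -0.03 over all genes, and on the ATM-labelled array it was 0.14, against -0.00.

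Zfp605, on chromosome 5, had the highest ratio with the shRNA. Its probe read 181 on the Dnmt1 shRNA array, 48.2 on the ATM-labelled array and 48.2 on the empty-vector array. The log2 ratio was 2.08 (4.22-fold) with the shRNA and 0.14 on the ATM-labelled array. With the shRNA it was 0.95 under normexp, a background correction that models signal and noise together, and with its probes below background averaged in it was 0.75. Zfp185, on the X chromosome, encodes an actin-associated protein with a LIM domain, and so carries zinc-binding folds of another kind. Its signals were 157 on the Dnmt1 shRNA array, 7.43 on the ATM-labelled array and 80.4 on the empty-vector array. It was thus 2.18-fold higher with the shRNA (log2 ratio 1.13, or 0.59 with normexp) and at least 2.24-fold lower on the ATM-labelled array, where it was not well above background (log2 ratio -1.15 with normexp). Such bounds set the empty-vector level against the lowest level well above background on the dim array.

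Zfp112, on chromosome 7, was dim on both arrays other than the control. It read 13.5 with the Dnmt1 shRNA and 19.3 on the ATM-labelled array, neither well above background, against 147 on the empty-vector array. By the processed signal it was at least 5.23-fold lower with the shRNA and at least 4.09-fold lower on the ATM-labelled array. Zfp112 has 1 probe, well above background only on the empty-vector array. Its membership and both bounds thus rest on that 1 value, which the rule selected, and are not separate results. With normexp Zfp112 had log2 ratios of -1.02 with the shRNA and -0.86 on the ATM-labelled array, the second under 2-fold. Zfp618, on chromosome 4, whose human counterpart reads 5-hydroxymethylcytosine with UHRF2, read 129 on the Dnmt1 shRNA array, 7.05 on the ATM-labelled array and 336 on the empty-vector array. Its log2 ratio with the shRNA was -1.22 (-0.89 with normexp), and on the ATM-labelled array it was at least 9.34-fold lower (log2 ratio -2.37 with normexp). Zfp940, on chromosome 7, read 26.5 on the Dnmt1 shRNA array, 46.8 on the ATM-labelled array and 67.3 on the empty-vector array. Its log2 ratio of -1.18 with the shRNA became -0.18 with normexp.

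Zfp704, on chromosome 3, had a mean log2 ratio of -1.25 with the shRNA, but its probes disagreed. One stood at -2.55 with a signal of 7.88 that was not well above background, and the other stood at 0.042. With the second probe alone the gene was not lower, and with normexp the mean was -0.29. After these, the highest ratios with the shRNA were 0.88 for Zfp974, 0.83 for Zfp560, 0.78 for Zfp3, 0.76 for Zfp945, 0.75 for Zfp287 and 0.72 for Zfp583. On the ATM-labelled array, in the same order, they were 0.11, -0.51, -0.47, 0.64, 1.06 and -2.30, with Zfp583 not well above background. The lowest of the others with the shRNA was Zfp410 at -0.59, with its 2 probes at -0.77 and -0.41. On the ATM-labelled array Zfp410 was as low, at -0.61, with the same probes at -0.82 and -0.40. Both ratios share the empty-vector array, and the low value was not particular to the shRNA. Zfp410 activates Chd4, a remodeller of the NuRD complex. Chd4 had log2 ratios of -0.14 with the shRNA and -0.18 on the ATM-labelled array, and a link to Zfp410 was not tested.

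**Figure D2:**
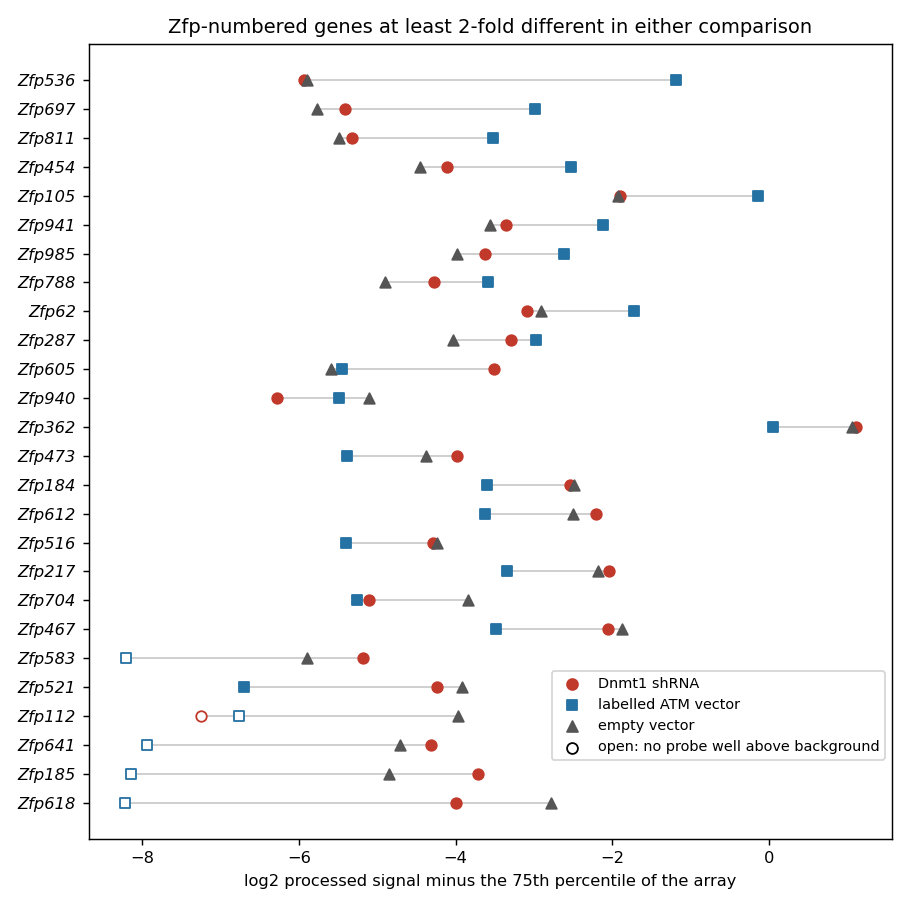
Levels of the 26 members at least 2-fold different in either comparison, as log2 processed signal minus the 75th percentile, with 1 point per array (Dnmt1 shRNA, labelled ATM vector, empty vector) and open symbols where no probe was well above background. Zfp536 stands at -1.19 on the ATM-labelled array, against -5.90 on the empty-vector array, and Zfp618 at -8.22, against -2.78.

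On the ATM-labelled array the members spread more widely, as did all genes. Of 298 members, 10 (3.36%) were at least 2-fold higher, against 6.01% of all genes, and 14 (4.70%) were at least 2-fold lower, against 8.34%. In all, 8.05% of members were at least 2-fold different, against 14.4% of all genes. The interquartile range of log2 ratios was 0.66 for members and 0.69 for all genes, while with the shRNA it was 0.34 for members and 0.38 for all genes. The median was 0.14, against -0.00 over all genes, and 186 of 298 members (62.4%) lay above the median of all genes. At 1.5-fold, 49 members (16.4%) were higher, against 13.6% of all genes, and 26 (8.72%) were lower, against 15.2%. Of the 14 lower members, 9 had signal well above background on both arrays, 4 had a bound of at least 2-fold, and Zfp583 had a bound of only 1.08-fold (log2 ratio -0.70 with normexp).

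Zfp536, on chromosome 7, a repressor of neuronal differentiation, stood furthest above the control. Its 2 probes had log2 ratios of 4.40 and 5.03 on the ATM-labelled array, with a mean of 4.71, or 3.19 with normexp. One read 49.6 on the Dnmt1 shRNA array, 1099 on the ATM-labelled array and 57.3 on the empty-vector array. The other read 22.8 on the Dnmt1 shRNA array, 771 on the ATM-labelled array and 26.1 on the empty-vector array, and was well above background only on the ATM-labelled array. Zfp697, on chromosome 3, read 48.2 on the Dnmt1 shRNA array, 266 on the ATM-labelled array and 42.2 on the empty-vector array (log2 ratio 2.79, or 0.80 with normexp). Zfp105, on chromosome 9, read 550 on the Dnmt1 shRNA array, 1912 on the ATM-labelled array and 609 on the empty-vector array (log2 ratio 1.79). All 3 had log2 ratios with the shRNA between -0.03 and 0.36.

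Zfp811 on chromosome 17 and Zfp454 on chromosome 11 were higher by 1.96 and 1.93, or 1.05 and 1.29 with normexp. Zfp454 and Zfp62 (1.19) were the only pair of neighbouring members that were both past 2-fold in one direction in either comparison, though with normexp Zfp62 was under 2-fold at 0.94. Zfp941 (1.44, with probes at 0.78 and 2.11), Zfp985 (1.37), Zfp788 (1.32) and Zfp287 (1.06, with probes at 0.74 and 1.39) made up the rest. With normexp, Zfp788 (0.81) and Zfp287 (0.53) were under 2-fold, and Zfp941 was so (0.78) with 1 of its probes alone.

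Among the lower members, Zfp641 on chromosome 15 was at least 2.45-fold lower and not well above background on the ATM-labelled array (log2 ratio -1.06 with normexp). Zfp521, on chromosome 18, a regulator of stem and stromal cell fate that restrains adipocyte formation, had levels of -4.24 on the Dnmt1 shRNA array, -6.70 on the ATM-labelled array and -3.91 on the empty-vector array. Its 2 probes had log2 ratios of -2.62 and -2.96 on the ATM-labelled array, the second with a signal not well above background there, and with normexp their mean was -1.45. Zfp467, on chromosome 6, which in mouse marrow stroma favours adipocytes over osteoblasts, was lower in all 4 of its probes, at -2.17 to -1.26 (mean -1.60). Zfp516, on chromosome 18, a factor of brown fat, was at -1.16, or -0.74 with the median of its chromosome subtracted and -0.55 with normexp. Zfp217, on chromosome 2, a partner of corepressor complexes that is amplified in human breast cancer, was at -1.16 with probes at -1.40 and -0.92, or -0.90 with the median of its chromosome subtracted and -0.99 with normexp. Zfp704 (-1.41), Zfp612 (-1.12), Zfp184 (-1.11), Zfp473 (-1.01) and Zfp362 (-1.01) were also past 2-fold. Of these, Zfp704 (-0.83), Zfp184 (-0.90) and Zfp473 (-0.48) were under 2-fold with normexp, and Zfp184 (-0.90) and Zfp362 (-0.995) with chromosome medians subtracted. Zfp362 (-0.992) and Zfp473 (-0.999) also lay under it with quantile normalization.

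Zfp112, Zfp618 and Zfp704 were at least 2-fold lower on both arrays by the measured ratio, and 0 members were at least 2-fold higher on both. For Zfp704 with the shRNA that ratio came from 1 of its probes only. The share of all genes past 2-fold on both arrays is not given, so these counts are not read as a result about the members. Both comparisons use the same empty-vector array, which also chose the members, so a high value there alone lowers both ratios. Of all members, 143 had their highest level on the ATM-labelled array, 109 with the Dnmt1 shRNA and 46 on the empty-vector array. The same count over all genes is not given, and the order of the arrays depends on the scaling. With array medians subtracted, all genes moved by -0.24 with the shRNA. These counts are therefore not read as a trait of the members.

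Members with known roles were described by group. The repressors of retroelements and guardians of imprints had 7 of 9 genes among the members, of which 0 were past 2-fold in either comparison. Over all genes 5.65% were past 2-fold with the shRNA and 14.4% on the ATM-labelled array, so a count of 0 in so few genes is near the background. Their medians were 0.04 with the shRNA and 0.16 on the ATM-labelled array. Zfp57, which with TRIM28 keeps methylation at imprints, had log2 ratios of -0.07 with the shRNA and 0.23 on the ATM-labelled array. With the shRNA its probes disagreed in sign, at 0.25 and -0.39, so the mean near 0 does not show that the gene was unchanged. Zfp445, a second guardian of imprints, had 0.16 with the shRNA and 0.22 on the ATM-labelled array. Zfp809, which silences retroviruses that use a proline tRNA primer, had levels of -1.36 on the Dnmt1 shRNA array, -1.72 on the ATM-labelled array and -1.78 on the empty-vector array. Zfp568, a repressor of a placental Igf2 transcript, had log2 ratios of -0.29 with the shRNA and -0.04 on the ATM-labelled array. The 2 genes of the list outside the rule entered none of these counts. Zfp42, the pluripotency gene also called Rex1, had no signal well above background. Zfp819 read 478 on the ATM-labelled array, against 8.55 on the empty-vector array, and was at least 13.9-fold higher there, as described below. The count of 0 past 2-fold thus does not cover the whole list.

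Members that act on RNA, ribosomes or ubiquitin numbered 11, and 0 were past 2-fold, which is again near the 5.65% and 14.4% of all genes for so short a list. Their log2 ratios ran from -0.26 to 0.32 with the shRNA and from -0.34 to 0.18 on the ATM-labelled array. Among them, Zfp622, a factor of large ribosomal subunit maturation, was at -0.02 with the shRNA and -0.26 on the ATM-labelled array, and Zfp598, a ubiquitin ligase that senses collided ribosomes, was at -0.19 with the shRNA and 0.18 on the ATM-labelled array.

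The lineage regulators had 9 of 10 genes among the members and a median of -0.05 with the shRNA and -0.39 on the ATM-labelled array, where Zfp521, Zfp467 and Zfp516 were at least 2-fold lower, beside 8.34% of all genes. Zfp423, which commits cells to the adipocyte lineage, had log2 ratios of -0.00 with the shRNA and -0.65 on the ATM-labelled array, and Zfp503, a regulator of striatal and limb development, had 0.37 with the shRNA and 0.52 on the ATM-labelled array. The 14 general promoter and chromatin factors had a median of 0.05 with the shRNA and -0.39 on the ATM-labelled array. There, 2 of 14 were above 0, against 49.9% of all genes. On that array 1 of them, Zfp217, was at least 2-fold lower, near the 8.34% of all genes. Zfp143, the factor for the promoter pattern above, had log2 ratios of 0.01 with the shRNA and -0.31 on the ATM-labelled array. Zfp532, which forms a transcription complex with Zfp592 and Zfp687, had 0.56 with the shRNA and -0.56 on the ATM-labelled array, and Zfp148 had -0.00 with the shRNA and -0.55 on the ATM-labelled array. The lists were chosen with earlier results in view, and a list's median is read only beside the medians of all genes, -0.03 and -0.00.

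The corepressor machinery used by KRAB proteins, which holds no member, was measured beside them. Of 24 genes, 0 were past 2-fold in either comparison, where 5.65% of all genes were with the shRNA and 14.4% on the ATM-labelled array. The 24 genes had medians of -0.13 with the Dnmt1 shRNA and 0.02 on the ATM-labelled array. Trim28 had log2 ratios of -0.12 with the shRNA and 0.02 on the ATM-labelled array, Setdb1 of -0.21 with the shRNA and -0.65 on the ATM-labelled array, and Atf7ip, the partner of SETDB1, of 0.13 with the shRNA and -0.98 on the ATM-labelled array. The Zfp-numbered genes had a median of 0.10 with the shRNA, against 0.05 for 92 genes of other zinc finger families such as Zbtb, Klf and Zkscan genes. On the ATM-labelled array it was 0.14, against -0.02 for those families. The Zfp genes with a letter after the number, 24 of those 92, had 0.16 with the shRNA and 0.34 on the ATM-labelled array.

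Zfp-numbered genes lie in runs. With at most 5 protein-coding genes between neighbours and at least 4 members per run, 116 members fell into 14 runs and 182 lay outside them. Members in runs had medians of 0.13 with the shRNA and 0.26 on the ATM-labelled array, while those outside had 0.08 with the shRNA and 0.08 on the ATM-labelled array. Of the 116 members in runs, 0 were higher and 2 lower past 2-fold with the shRNA. On the ATM-labelled array 2 of them were higher and 3 lower. Of the 182 outside, 2 were higher and 2 lower past 2-fold with the shRNA. On the ATM-labelled array 8 of those were higher and 11 lower. The same cut took in 3.68% of all genes upward and 1.97% downward with the shRNA, and 6.01% and 8.34% on the ATM-labelled array. The sets differ in size and the counts are small, so members in runs and outside are not compared by them. The promoter pattern lay upstream of 33 members in runs (30.8% of those with a window) and of 13 of 142 outside (9.15%). Most of the 33 came from few runs. Of them, 15 lay in the chromosome 13 run, and 9 from Zfp84 to Zfp146 and 5 from Zfp180 to Zfp94 on chromosome 7. The share is thus not a trait of runs in general.

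The runs differed among themselves. On chromosome 17, the 7 members from Zfp871 to Zfp563 had medians of 0.41 with the shRNA and 0.50 on the ATM-labelled array, with 7 of 7 above 0 on the ATM-labelled array, and 0 of 7 members held the pattern. On chromosome 7, the 4 members from Zfp954 to Zfp772 had medians of 0.49 with the shRNA and 0.76 on the ATM-labelled array, with 4 of 4 above 0 in both comparisons. The 16 members of the chromosome 13 run, whose sites are shown above, had medians of 0.26 with the shRNA and 0.09 on the ATM-labelled array. The largest run, 20 members from Zfp160 to Zfp13 on chromosome 17, had medians of 0.16 with the shRNA and 0.22 on the ATM-labelled array, and 0 of its 18 members with a window held the pattern. The 5 members from Zfp560 to Zfp846 on chromosome 9 had medians of 0.05 with the shRNA and -0.24 on the ATM-labelled array. Over all genes, 44.9% had log2 ratios above 0 with the shRNA and 49.9% on the ATM-labelled array. Where 0 lies depends on the scaling. Medians above 0 occurred in runs with and without the pattern, and its part in these levels was not tested.

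**Figure D3:**
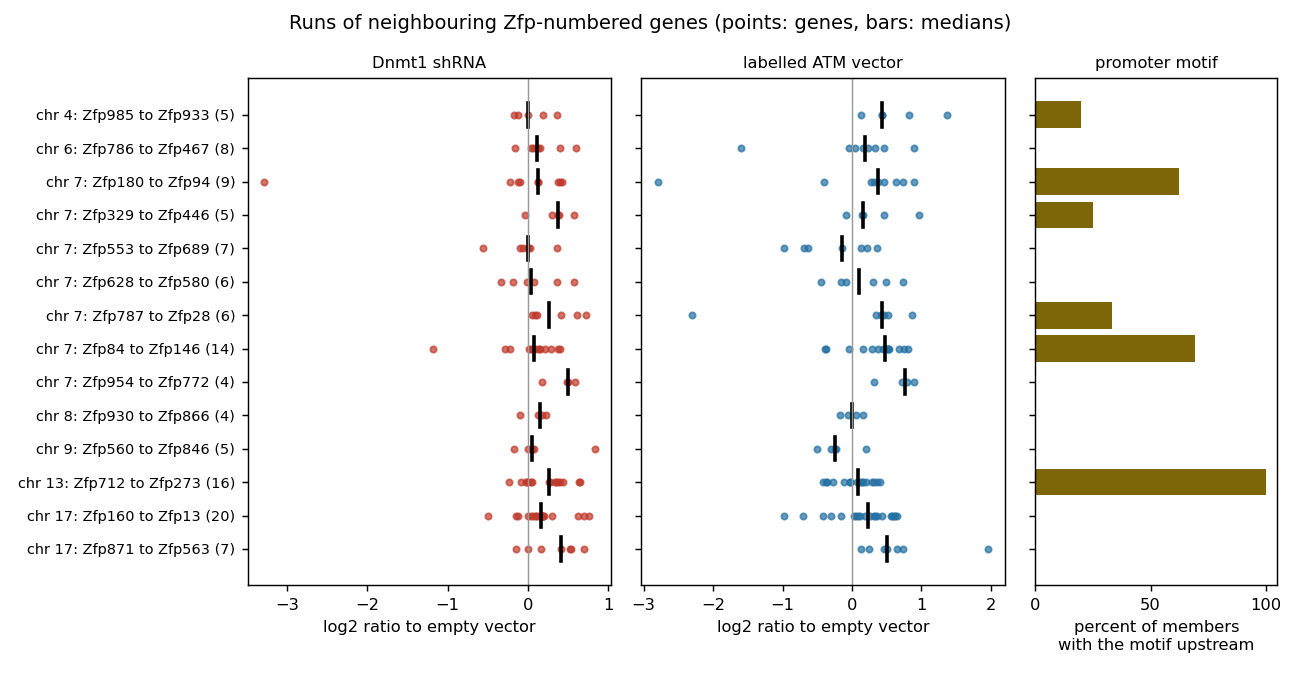
Log2 ratios of each member (points) and medians (bars) in 14 runs of neighbouring Zfp-numbered genes for the Dnmt1 shRNA array and the ATM-labelled array, with the percent of members with a promoter window that held the pattern at the right. Run medians on the ATM-labelled array span -0.24 for Zfp560 to Zfp846 and 0.76 for Zfp954 to Zfp772, and the pattern fills the Zfp712 to Zfp273 run.

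Medians of whole chromosomes differed on the ATM-labelled array, and members were read beside their chromosome. Chromosome 7 held 77 members with a median of 0.30, against 0.14 over all its genes, and chromosome 17 held 36 with 0.33, against 0.18. On chromosome 13, 27 members had a median of -0.02, against -0.21 over all its genes. On chromosome 4, 17 members had 0.38, against -0.01, and on chromosome 18, 10 members had -0.44, against -0.41, with 1 of 10 above 0. On chromosome 8, 20 members had -0.14, against -0.11. With each chromosome's median subtracted, 22 members were past 2-fold (10 higher, 12 lower), and the members' median was 0.15. The chromosome medians of all genes ran from -0.41 on chromosome 18 to 0.42 on chromosome 10, with the Y chromosome apart at 3 genes. With the shRNA they ran from -0.09 to -0.00.

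**Figure D4:**
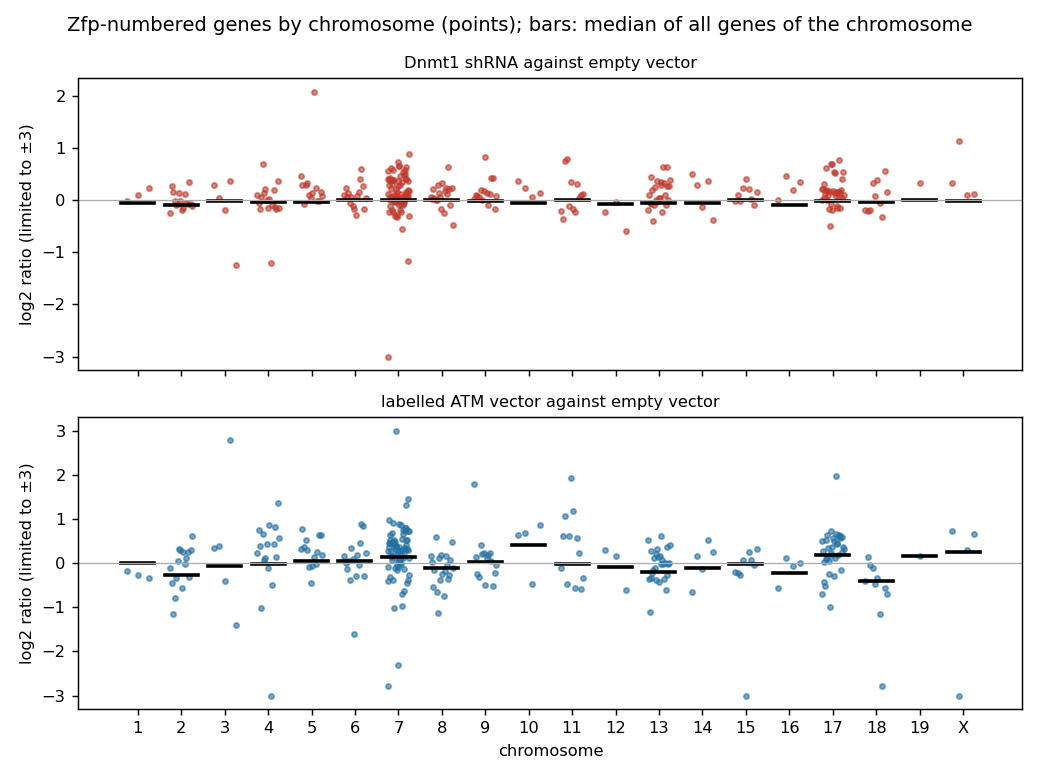
Log2 ratio to the empty-vector array of each member (points, limited to 3 in either direction) by chromosome, with the median of all genes of the chromosome as a bar, for the Dnmt1 shRNA array (top) and the ATM-labelled array (bottom). In the bottom panel chromosome 18 stands at -0.41 and chromosome 10 at 0.42, and members of chromosomes 7 and 17 lie mostly above 0.

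Ratios were also set beside signal. With all genes divided into 3 equal bins by signal, the dim bin held 166 members, the middle 98 and the bright 34. Member medians with the shRNA were 0.15, 0.05 and 0.02 from dim to bright, against 0.07, -0.04 and -0.09 over all genes of the same bins. On the ATM-labelled array they were 0.16, 0.09 and 0.18, against -0.02, -0.01 and 0.02. In each bin the members' median lay above that of all genes.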

How the data were processed

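Expression was measured on 3 Agilent 1-colour (Cy3) arrays, 1 per group, grouped by the transfection label. The authors deposited scanner output made in Agilent Feature Extraction, version 10.7.3.1 per the submitters' processing notes. The processed signal they hold is a linear intensity, corrected for background and spatial trend within each array, per the file headers. The deposited series matrix held the same intensity values, within 0.495%, with medians of 80.4, 68.6 and 75.2 for the Dnmt1 shRNA array, the ATM-labelled array and the empty-vector array. Its scale is therefore linear and uncentred. Other deposited columns were per-spot marks of 0 or 1.

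Control spots and 235, 167 and 228 outlier spots on those arrays were removed, leaving 39404 probes. No spot was saturated. Probes well above background numbered 59.6%, 55.0% and 55.1%, and repeated spots of a probe had a median SD of 0.0633, 0.0803 and 0.0609 (log2). Log2 signals minus each array's 75th percentile were averaged over spots, then over a gene's probes that were well above background on at least 1 array (more than 50% of spots). Each comparison is a log2 ratio of 2 arrays, described by counts past 2-fold and by medians beside all genes that met the members' condition. No test was possible. Scripts were tested on simulated data. Alternatives were scalings, filters, probe rules, the matrix and limma's normexp on median spot signals.

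Probes were named by RefSeq accession: 26397 of 39404 matched 1 symbol. Promoters and gene order came from RefSeq on GRCm38.p6. The array was designed on mm9, so no probe coordinates are given. Members and lists were chosen with earlier results of these data known. Named genes were the 10 highest and 10 lowest members per comparison with every probe above background and of 1 sign, those past 2-fold, those with bounds, and list members. KRAB boxes were not analysed here. Python 3.11.15, numpy 2.4.6, pandas 2.3.3, R 4.3.3 and limma 3.58.1 were used.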

Additional observations from a re-analysis of the deposited data

Results flagged for a closer look

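Of the 31 Zfp-numbered genes that were not well above background on the empty-vector array and so entered no comparison, 10 (32.3%) were well above background on the Dnmt1 shRNA array, 2 (6.45%) on the ATM-labelled array and 20 on none of the arrays. Of all 7267 named genes not well above background on the empty-vector array, 14.3% were so with the Dnmt1 shRNA and 6.87% on the ATM-labelled array. The lowest signal with that mark was 25.1 on the Dnmt1 shRNA array, 32.7 on the ATM-labelled array and 37.8 on the empty-vector array, and the part of this in the counts was not tested. Zfp474 had a signal of 102 on the Dnmt1 shRNA array, 8.72 on the ATM-labelled array and 8.68 on the empty-vector array, and was at least 3.04-fold higher with the shRNA. Zfp819, a repressor of retroelements on chromosome 7, read 6.17 on the Dnmt1 shRNA array, 478 on the ATM-labelled array and 8.55 on the empty-vector array, and was at least 13.9-fold higher on the ATM-labelled array. Each rests on 1 probe and 1 array, and both drew attention because they have signal on 1 array and none above background in the control.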

How the results depend on the processing

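No paired analysis was possible because each group has 1 array. Over 12 other settings, and subtraction of chromosome medians, which was chosen after seeing the data, the members' median minus that of all genes kept its sign, at 0.08 to 0.18 with the shRNA and 0.09 to 0.15 on the ATM-labelled array. The members' own median ran from -0.14 to 0.14 with the shRNA, below 0 only where each array's median was subtracted (-0.14), and from 0.10 to 0.15 on the ATM-labelled array.

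Counts past 2-fold moved more. With the shRNA, the 6 different members (2 higher, 4 lower) became 2 (1 higher, 1 lower) with every probe above background on all arrays, 25 (20 higher) at 1.5-fold, 16 (9 higher, 7 lower) without the filter and 1 (0 higher, 1 lower) with normexp. With the median of each array subtracted or quantile normalization, 1 was higher. On the ATM-labelled array, the 24 different members (10 higher, 14 lower) became 14 (6 lower) with every probe above background, 75 (49 higher, 26 lower) at 1.5-fold and 13 (6 higher, 7 lower) with normexp. The filters test fewer or more probes and genes and the lower threshold admits smaller ratios, while for normexp and the other scalings, on the same 298 members, the cause was not tested.

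Of 2040 recomputed values of 86 named genes, 1992 moved by less than the spread between probes and 47 moved further. In 74 the sign changed. Of those, 1 had been past 2-fold, Zfp704 with the shRNA, at 0.042 with the brightest probe only, and the others had been at most 0.34 in size. Of 346 recomputed values past 2-fold, 32 came out under it. Signal near background limits the dim genes above.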
